A study of Cubamyces sp. BRFM 1775 with 14 samples.

Results

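Wheat straw was set against purified cellulose as a substrate for Leiotrametes sp. BRFM1775, a wood-rotting member of the Polyporales, and the difference was taken for all 1052 genes of the deposited table, out of 1052 in the whole series. Shaken cultures in a mineral medium were kept at 30 °C and sampled after 3 days, and messenger RNA was sequenced. Cellulose cultures held 15 g/l Avicel, a microcrystalline cellulose, and straw cultures held 15 g/l ground and sieved wheat straw. Both also held 2.5 g/l maltose, so the added soluble sugar was the same on the 2 sides. The other cultures used below held 20 g/l maltose with no solid substrate, 2.5 g/l maltose with 15 g/l ground pine, or 15 g/l milled aspen with an amount of maltose that the labels misprint. All are the same strain, and mycelium was frozen together with what was left of the solid substrate. Of the 14 labelled samples, 5 belong to this comparison, 3 on cellulose and 2 on straw.

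A wheat straw cell wall contains cellulose together with arabinoxylan and other hemicelluloses, lignin, and phenolic acids that link them. Avicel offers the cellulose chains with little else. Fungi of this order attack plant walls with secreted hydrolases, polysaccharide monooxygenases and oxidases, and genes for such enzymes are commonly switched by the carbon source. The deposited table names genes only by protein number of the MycoCosm portal and does not pair the numbers with gene names or enzyme families. Genes are therefore described by number, level and behaviour across substrates, no family is named, and no sequence is shown.

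The table gives 1 log2 normalised read count per substrate, the mean over libraries. The whole reads behind these means could be solved for each library and account for 13 libraries, 2 of them on cellulose and 2 on wheat straw. Which of the 3 labelled cellulose samples is not in the column is not known. Library numbers used here follow the size factor on each substrate, lowest first, and have no relation to the labelled replicate numbers. The 4 libraries of this comparison held between 4950587 and 6137774 recovered reads, with a median gene at 524 to 799.5 reads. Reads were recovered for 1050 genes in all 4 of them and for 746 genes in all 13. The labels do not say that replicates were separate cultures. The p-values therefore reflect the spread between these libraries alone, and that spread may be technical.

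More genes were higher on wheat straw than on cellulose than were lower. A gene was called when its adjusted p was below 0.05 (limma, Benjamini-Hochberg over all genes) and its log2 difference was at least 1. On that rule 194 of 1052 genes were higher on straw, which is 18.4%, and 125 were lower, which is 11.9%, so that 30.3% were called in all. The median called gene was 3.86-fold higher or 3.76-fold lower. The excess held for larger differences up to 16-fold: 94 genes were at least 4-fold higher and 56 at least 4-fold lower, at 16-fold the counts were 18 and 9, and at 32-fold they were equal, 5 and 5. In bulk mycelium, more hyphae expressing a gene and more of its RNA per hypha cannot be told apart. Over all genes the median difference was only 0.01 on the log2 scale, and the quartiles lay at -0.59 and 0.79.

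**Figure D1:**
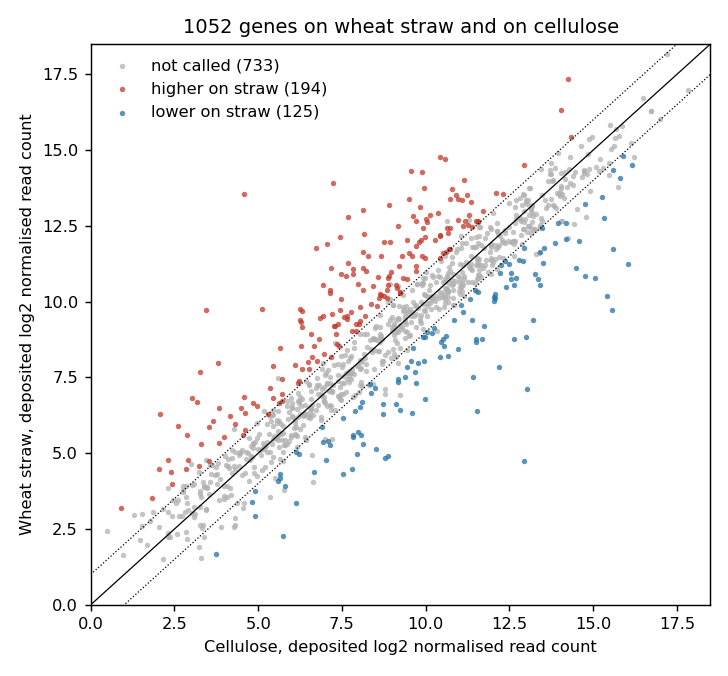
Each point is a gene at its deposited log2 normalised read count on cellulose (horizontal) and wheat straw (vertical). The solid line marks equal values and the dotted lines a log2 difference of 1; the 194 higher genes lie above the upper dotted line and the 125 lower genes below the lower one.

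The excess of higher over lower calls depends on how libraries are scaled. Higher calls were 60.8% of all calls with the deposited scaling. They were 46.9% with each library centred on its median, which moved the median difference over genes to -0.25, and 52.9% after quantile normalisation. The lower calls rested in part on 1 library: without wheat straw library 2 they numbered 78. The fit of the 2 groups alone, with no pine, aspen or maltose library in the estimate of the spread, called 152 higher and 93 lower. With 2 libraries against 2, an exact permutation test of a single gene cannot give a p below 0.333. The calls therefore rest on the spread pooled over genes and substrates. That spread is taken as equal on every substrate, so the error may be understated for genes that varied more on cellulose.

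The straw and cellulose libraries did not overlap for 773 of 1050 genes, or 73.6%: straw was above cellulose in every pair of libraries for 395 (37.6%) and below for 378 (36.0%). Non-overlap alone was thus common, and every called gene with reads recovered in the 4 libraries was among these. A share of the genes could be placed close to equality. For 289 genes, 27.5% of the table, the 95% interval of the difference stayed within a log2 value of 1 on either side of 0, so these differed by less than 2-fold within the error of these libraries. Another 444 genes were neither called nor placed that tightly. Among all uncalled genes, 69 had a difference of at least 1 that did not pass the test. The median standard error (SE) of the difference was 0.30.

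Calls were made at every level of expression. Genes were divided into 4 classes of 263 by their mean over the 5 substrates. In the lowest class, up to a level of 6.34, 33 genes were higher on straw and 26 lower. The counts were 49 and 35 in the second class, 65 and 36 in the third, and 47 and 28 in the highest, above 11.23. The third class thus held the largest share of calls, 38.4%, and the lowest class the smallest, 22.4%. Most called genes had many reads on the side where they were high: 168 of the higher genes had at least 100 reads in each straw library, and 108 of the lower genes had at least 100 in each cellulose library. Only 12 higher genes had at most 10 reads in each cellulose library, and 2 lower genes had at most 10 in each straw library. No gene was at 0 reads in both libraries of either substrate.

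Reads were divided differently over the called genes on the 2 substrates. By count, the higher genes were 18.4% of all genes and the lower genes 11.9%. Within each library, shares were taken over the 1050 genes recovered in all 4 libraries. The 194 higher genes took 3.10% and 5.10% of these normalised reads in the cellulose libraries and 22.6% and 24.98% in the straw libraries. The 124 lower genes among the 1050 took 24.3% and 17.8% in the cellulose libraries and 5.45% and 4.93% in the straw libraries. These shares describe genes chosen from the same reads and carry no test. The maltose, pine and aspen columns entered the choice through the estimate of the spread and not through the difference. With their deposited values returned to a linear scale and summed, the higher genes took 5.44% on maltose, 27.7% on pine and 26.1% on aspen. The lower genes took 11.7% on maltose, 8.03% on pine and 7.17% on aspen. The most abundant transcripts were nevertheless largely common to the 2 substrates: 12 of the 20 most abundant genes on straw were also among the 20 most abundant on cellulose. Of the 20 on straw, 3 were called higher on straw, where 18.4% of all genes were. Of the 20 on cellulose, 6 were called lower on straw, where 11.9% of all genes were. No gene of either list was called the other way. Picking genes for a high value on a compared substrate favours calls in that direction, so these counts carry no test.

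The largest rise was that of gene 1330893. Its log2(normalised reads + 1) values were 4.22 and 4.91 in the cellulose libraries and 13.14 and 13.96 in the straw libraries. The 2 groups were far apart, and the maltose libraries, at 4.98, 6.43 and 5.56, stood with cellulose. The difference was 8.99 (SE 0.51, limma adjusted p = 2.12e-05). The gene moved from rank 920 of the 1052 genes on cellulose to rank 79 on straw, and it ranked 27 on pine, with a deposited value of 15.65.

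Gene 1277688 gave the second largest rise, with 6.34 and 8.13 in the cellulose libraries and 13.75 and 14.07 in the straw libraries. Its cellulose libraries differed more than 3-fold from each other, yet both were far below straw, and its maltose libraries lay between 7.69 and 8.26. The difference was 6.68 (SE 0.53, limma adjusted p = 8.12e-05). On pine and aspen its deposited values were 13.90 and 14.73, so that both woods stood at the straw level or above.

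Gene 1334166 showed the largest fall. It had 14.13 and 11.74 in the cellulose libraries and 5.02 and 4.44 in the straw libraries. Every other library lay between these groups: 10.75 to 11.59 on maltose, 9.06 to 10.16 on pine and 7.85 to 8.61 on aspen. The difference was -8.20 (SE 0.64, limma adjusted p = 7.06e-06). In reads this was 19347 and 3999 on cellulose against 40 and 29 on straw, and the size of the fall depended on the cellulose library. The SD between libraries was 1.69 on cellulose and 0.41 on straw. In the fit of the straw and cellulose libraries alone the SE was 0.84.

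Gene 1370799 fell by 5.89 (SE 0.54, limma adjusted p = 0.000168). Its values were 13.86 and 12.18 on cellulose and 7.24 and 7.01 on straw, with no overlap. The aspen libraries, at 7.13, 6.57 and 6.21, were near straw, as was the deposited value of 6.70 on pine, whereas maltose, at 12.04, was near cellulose.

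**Figure D2:**
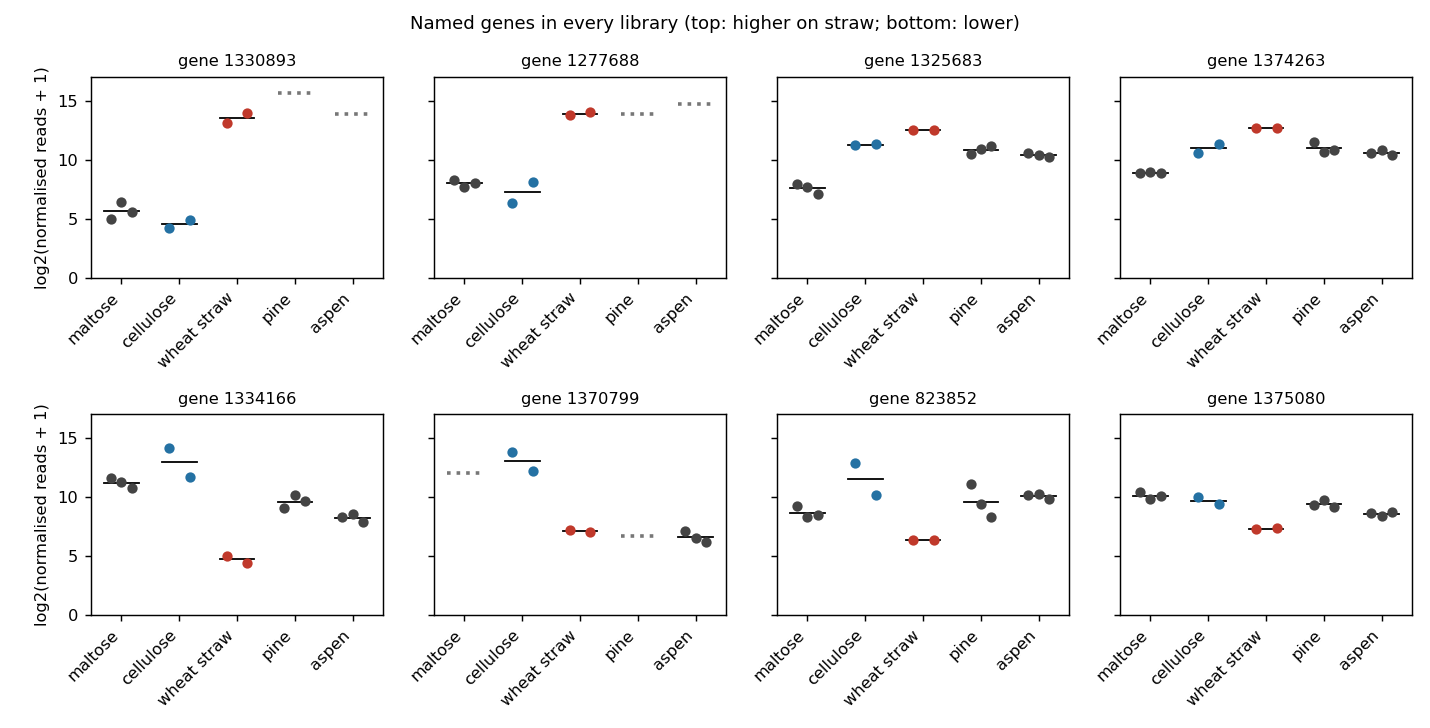
Each point is 1 library at its recovered log2(normalised reads + 1), the short black line is the mean of the substrate, and a dotted line is a deposited mean whose libraries were not recovered. In the top row straw (red) is above cellulose (blue) and in the bottom row it is below; for genes 1330893 and 1277688 the woods are as high as straw, and for genes 1325683 and 1374263 straw is above all other libraries.

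Levels on the substrates outside the comparison were then set beside these differences. For the 194 genes higher on straw, the median deposited value was 8.03 on cellulose and 7.97 on maltose, against 10.42 on straw, 10.67 on pine and 10.32 on aspen. For the 125 lower genes it was 10.67 on cellulose, 9.20 on maltose, 8.68 on straw, 8.56 on pine and 8.16 on aspen. Over all 1052 genes the medians lay between 8.30 and 9.30. Both groups thus had woods near straw, but maltose stood with cellulose in the higher group and between the 2 substrates in the lower group.

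**Figure D3:**
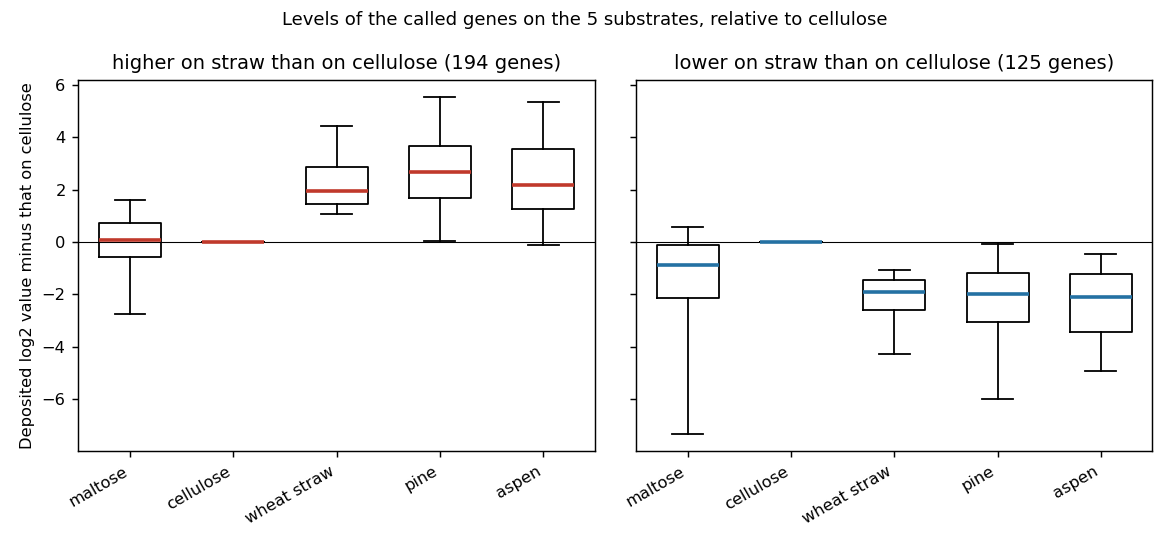
Boxes show the deposited log2 value on each substrate minus that on cellulose for the 194 higher genes (left) and the 125 lower genes (right), with the line at the median, the box at the quartiles and whiskers at the 5th and 95th percentiles. At left the medians are 1.95 on straw, 2.67 on pine and 2.19 on aspen, at right they are -1.91, -1.99 and -2.11, and the maltose median is near 0 at left and at -0.87 at right.

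Counted gene by gene, both woods were nearer to the straw value than to the cellulose value for 153 of the 194 higher genes and for 99 of the 125 lower genes. Over all 1052 genes this held for 556, or 52.9%, a share that includes genes with nearly equal straw and cellulose values. Nearness was measured to the straw and cellulose values that chose the genes, so these counts are a description and carry no test. Pine exceeded both straw and cellulose for 132 of the 194 higher genes and aspen for 101, against 494 and 400 of all 1052. The median higher gene was 0.53 above its straw value on pine and 0.08 on aspen, where the medians over all genes were 0.22 and 0.03. The genes at least 8-fold apart showed the same arrangement: both woods were nearer to straw for 38 of 44 higher genes and 20 of 23 lower genes.

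Maltose stood differently beside the 2 groups. Among the higher genes, maltose was nearer to cellulose for 163 of 194, and the median levels of these were 7.88 on maltose, 8.13 on cellulose and 10.77 on straw. The other 31 were at 8.39 on maltose, 6.81 on cellulose and 8.78 on straw, so cellulose had the low value. Among the lower genes the split was nearly even. For 66 of them maltose was nearer to cellulose, with medians of 9.87 on maltose, 9.80 on cellulose and 7.76 on straw, so straw had the low value. For the other 59, maltose was nearer to straw, with medians of 8.29 on maltose, 11.56 on cellulose and 9.65 on straw, so cellulose had the high value. Among the 23 genes at least 8-fold lower on straw, 10 were of this second kind, with medians of 7.23 on maltose, 13.98 on cellulose and 9.55 on straw. Over all genes maltose was nearer to straw for 445, or 42.3%. These subsets were formed from the levels themselves and carry no test.

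The difference between the woods and maltose shares no library with the difference between straw and cellulose. It was tested in the same way in a separate fit, with p adjusted over the 746 genes recovered in all libraries. The spread of a gene came from the same libraries in both tests, so a gene with a small spread was more readily called in both. The mean of pine and aspen was higher than maltose for 28.0% of the 746 genes and lower for 14.2%. Of the 121 genes called higher on straw than on cellulose, 91 were higher on the woods than on maltose, which is 75.2%, and 3 were lower. Of the 89 called lower on straw, 43 were lower on the woods, which is 48.3%, and 11 were higher. The count of genes lower on both moved with the scaling: 76 of 128 genes lower on straw were lower on the woods with median centring, where 24.3% of all 746 were, and 69 of 112 after quantile normalisation, where 23.2% were. The shared genes were 43.5% of the 209 genes higher on the woods and 40.6% of the 106 genes lower on them. Median differences between woods and maltose were 2.03 in the higher group, -0.83 in the lower group and 0.21 over the 746 genes. Genes above a deposited value of 12 on maltose, pine or aspen are not among the 746, because their reads were not recovered there.

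**Figure D4:**
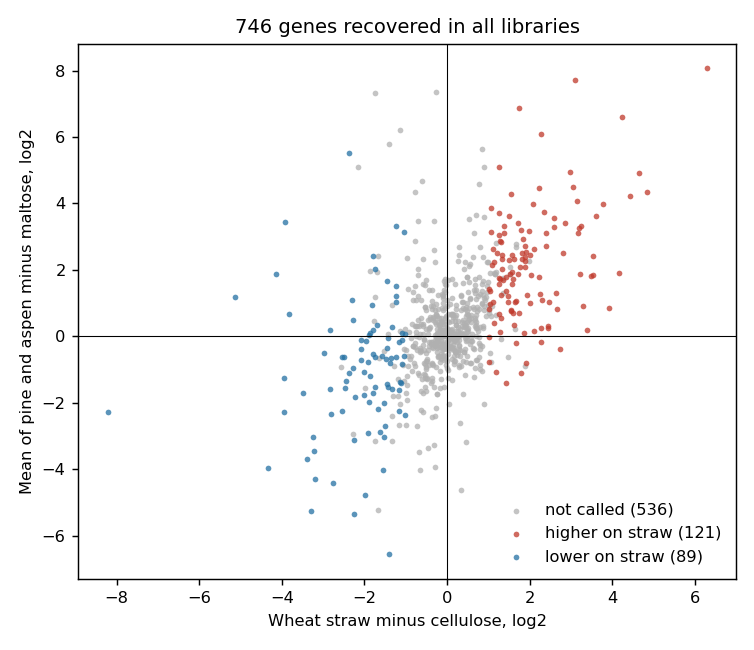
Each point is 1 of the 746 genes recovered in all libraries, at its log2 difference between wheat straw and cellulose (horizontal) and between the mean of pine and aspen and maltose (vertical), 2 differences with no library in common. Of the 121 genes higher on straw (red) most lie above 0 on the vertical axis, and the 89 lower genes (blue) spread to both sides with a median of -0.83.

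Few genes set straw apart from every other substrate. Among the 746 genes, both straw libraries lay above all 11 other libraries for 31, or 4.16%, and below all of them for 20, or 2.68%. The corresponding counts for cellulose, also with 2 libraries, were 64 above and 54 below. With 3 libraries each, pine had 87 and 54, aspen 63 and 37, and maltose 48 and 90. Of the 31 genes highest on straw, 20 were called higher than on cellulose, where 121 of all 746 were, and of the 20 lowest, 10 were called lower, where 89 of all 746 were. The direction of these calls is fixed by the choice of genes.

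Genes 1325683 and 1374263 had the widest gap above the other libraries. Gene 1325683 was at 12.48 and 12.55 in the straw libraries, 11.22 and 11.32 on cellulose, 7.13 to 7.92 on maltose, 10.47 to 11.15 on pine and 10.22 to 10.54 on aspen. Straw was thus 1.16 above the nearest other library, and the difference from cellulose was 1.25 (SE 0.27, limma adjusted p = 0.00418). Gene 1374263 was at 12.71 and 12.66 on straw, 10.57 and 11.37 on cellulose and 8.83 to 8.99 on maltose. Its wood libraries lay between 10.38 and 11.52, near cellulose, and it was 1.72 higher on straw than on cellulose (SE 0.31, limma adjusted p = 0.00115). On the linear scale these differences from cellulose were 2.37-fold and 3.28-fold, against a median of 3.86-fold over all 194 higher genes.

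Of the 746 genes, those called lower on straw with the widest gap below were 823852 and 1375080, apart from gene 1334166. Gene 823852 had 6.40 and 6.39 in the straw libraries, 12.86 and 10.18 on cellulose, 8.35 to 9.22 on maltose, 8.34 to 11.09 on pine and 9.82 to 10.26 on aspen. Its difference between straw and cellulose was -5.12 (SE 0.86, limma adjusted p = 0.000752), and its cellulose and pine libraries each spread widely. Gene 1375080 had 7.29 and 7.37 on straw, 10.02 and 9.37 on cellulose, 9.84 to 10.40 on maltose, 9.15 to 9.76 on pine and 8.44 to 8.73 on aspen. Its difference was -2.36 (SE 0.27, limma adjusted p = 6.04e-05), and no other substrate came near the straw level.

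Both woods stood on the side of cellulose for 187 of all 1052 genes, or 17.8%. There were 15 such genes among the 194 higher ones, with medians of 9.44 on cellulose, 10.74 on straw, 9.30 on pine and 9.18 on aspen, and a median difference of 1.32. There were 13 among the 125 lower ones, with medians of 10.84 on cellulose, 8.20 on straw, 11.11 on pine and 10.09 on aspen, and a median difference of -1.76.

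The 2 sides of the comparison were not equally tight. The median SD between libraries was 0.29 on cellulose and 0.17 on wheat straw, and 198 of 1050 genes differed more than 2-fold between the cellulose libraries against 60 between the straw libraries. Across the 1050 genes, which are not independent replicates, Pearson's r was 0.970 between the cellulose libraries, 0.989 between the straw libraries and 0.871 to 0.911 between a cellulose and a straw library. Among the 124 lower genes recovered in all 4 libraries, 79 were higher in cellulose library 1 than in library 2, by a median of 0.42 over the 124, whereas over all 1050 genes the number was 551 and the median 0.04. In the 194 higher genes it was 72, with a median of -0.29. Cellulose library 1 was thus the farther from straw in both groups. Without it 170 genes were higher and 113 lower, and without cellulose library 2 the numbers were 204 and 135. The part of this library difference in the calls was not tested further.

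**Figure D5:**
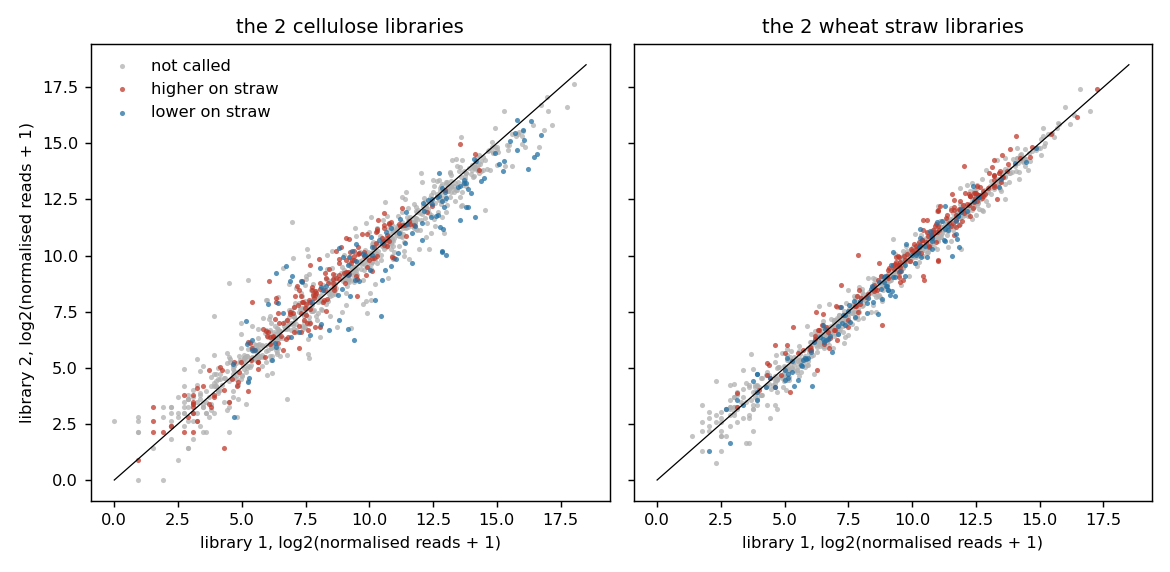
Each point is 1 gene at its log2(normalised reads + 1) in library 1 (horizontal) and library 2 (vertical) of cellulose (left) and of wheat straw (right), coloured by call; the line marks equal values. Points scatter more widely for cellulose, where the median SD was 0.29, than for straw, where it was 0.17.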

How the data were processed

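The deposited values are normalised read counts on the log2 scale, 1 per substrate, per the file headers. TopHat2, HTSeq and DESeq (version 1.5) are named in the submitters' processing notes with no role. The build, the constant inside the log and the choice of genes: not given in the sources used here.

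Each value was treated as an average of log2(reads × scale + 1) over the libraries of its column. Scales were fitted on the lowest values. All 60 lowest values of every column then came out as whole reads within 1e-09, and at most 1 of 60 with scales moved 1% up or down. Reads were kept where a single solution existed, searched for values above 6 within 16 times (2 libraries) or 4 times (3 libraries) the mean in either direction. Values above 12 were not attempted with 3 libraries. This gave 1052 genes on cellulose, 1050 on wheat straw, 899 on maltose, 796 on pine and 831 on aspen. An unsolved gene kept its deposited mean, with a spread from other substrates; 108 genes had at most 2 residual degrees of freedom. Every pair of libraries differed beyond sampling noise (chi-square per degree of freedom 10.4 or more).

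All 13 libraries entered 1 limma 3.58.1 fit (R 4.3.3) with a mean per substrate, a trend of the variance and Benjamini-Hochberg adjustment. Python 3.11.15 solved the reads. Both steps were tested on simulated data. Adding 1 before the log understates changes of genes with few reads.

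The comparison, groups and rules were chosen with earlier results of these data known. Named genes are the 2 per direction with the largest called difference and separated libraries, and the 2 per direction with the widest gap between straw and every other library. The gap was taken among called genes recovered in all 13 libraries, leaving out genes already named. No more are named, and the planned enzyme family lists were not tested, because numbers are not paired with names.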

Additional observations from a re-analysis of the deposited data

How the results depend on the processing

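No call of the comparison changed direction under any of the alternatives tried. A call changed direction only if it passed the threshold of 1 on the other side, and several alternatives left the difference itself unchanged. The absence of such changes therefore says little about how many calls held. The number of genes higher on wheat straw stayed within 1.5 times of 194 except where only the 746 genes recovered in all libraries were tested: it was then 121 (an alternative chosen after seeing the data), or 117 with voom weights on the recovered reads, because fewer genes were tested. Leaving out 1 cellulose or straw library at a time gave 151 to 204 higher and 78 to 135 lower genes, the lowest of each without wheat straw library 2; in these fits the lone library of a substrate is assumed to vary like the others. Of the 319 calls, 285 remained with median centring, 283 after quantile normalisation, 276 with 32 reads added before the log and 236 in the fit of the 4 libraries alone. Among genes lower on straw, those lower on the woods than on maltose numbered 76 of 128 with median centring, where 24.3% of all genes were lower on the woods, and 69 of 112 after quantile normalisation, where 23.2% were; the cause was not tested. Of 114 values of the named genes under the alternatives, 113 kept direction and call; gene 1325683 missed the size threshold with median centring, at 0.99. The named genes were chosen from these data for large differences or wide gaps, so the count does not speak for the other calls. Among the alternatives were 1 with no test and several that left the difference unchanged. No paired analysis was possible because the columns carry no replicate numbers. Depth limits the low genes: 15 had at most 10 reads in every straw and cellulose library.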

Other observations

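The 2 cellulose libraries split one group of genes. For 100 genes library 1 exceeded library 2 by more than 2-fold, with median log2 levels of 10.54 and 8.95. Their median deposited values were 7.71 on maltose and 8.64 on wheat straw, and the woods were at 8.78 (pine) and 8.61 (aspen). Cellulose library 2 was thus the nearer one to the other substrates for most of them: to straw for 73, to maltose for 74, to pine for 63 and to aspen for 67. Cellulose had the highest of the 5 deposited values for 46 of the 100, against 226 of all 1052 genes (21.5%). Of the 100, 37 were called lower on straw, against 11.9% of all genes, and 7 were called higher, against 18.4%. These counts share the cellulose libraries that chose the genes and are a description.

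For 98 genes the order was the other way, with medians of 6.98 in library 1 and 8.87 in library 2. Here cellulose had the highest deposited value for 20, close to the 21.5% of all genes, and 12 were called lower on straw, close to 11.9%. Another 25 were called higher, against 18.4%. Library 2 was nearer to straw for 56 and to maltose for 53, so neither library stood closer to the other substrates in this group by a wide margin. The labels do not say how the 2 cellulose libraries differed, and the cause was not tested.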
